A study of Mus musculus with 6 samples.

Results

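A set of 8 genes that mark dividing precursors and newborn neurons of the adult hippocampus, Mki67, Top2a, Eomes, Neurod1, Dcx, Sox11, Igfbpl1 and Calb2, were followed in hippocampal RNA of wild-type (WT) and transgenic (TG) mice. They were taken by symbol from the deposited table, and all 8 were found among its 54532 genes. The study sequenced 3 libraries of each group, numbered WT1 to WT3 for wild-type and TG1 to TG3 for transgenic mice. The TG mice carry the G82R/L85P variant as a knock-in in exon 3 of Slc1a2, made with CRISPR/Cas9 on a C57BL/6N background, and the WT mice were littermates. Slc1a2 encodes GLT-1, the main glutamate transporter of astrocytes. The labels name no treatment besides the genotype, and the methods describe variant mice and WT littermates of both sexes. The age, the zygosity and the sex behind each library were not given in the sources used here. Values are FPKM, the reads of a gene per kilobase of its length and scaled to the reads of its library, so levels can be set side by side between genes.

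In the adult brain new granule neurons are made in the subgranular zone of the dentate gyrus. Radial glia-like stem cells give rise to intermediate progenitors, which switch on Eomes (Tbr2) and Neurod1, divide, and become neuroblasts that express Dcx, Sox11 and Igfbpl1. Postmitotic immature granule neurons pass through a calretinin (Calb2) stage before they take up calbindin (Calb1). Mki67 and Top2a are transcribed in cycling cells of any type. Few hippocampal cells are in these stages in an adult animal, and several of the genes are also used elsewhere: Neurod1 remains on in mature granule neurons, Calb2 marks hilar mossy cells, interneurons and Cajal-Retzius cells, and Eomes is also a transcription factor of NK and T cells. In such bulk RNA, fewer cells of a type and less RNA per cell cannot be told apart.

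Libraries TG1 and TG2 stood apart by high levels of markers of the choroid plexus, a secretory epithelium that lies against the hippocampus. The summed FPKM of 21 of its markers was 119, 90.0 and 101 in WT1 to WT3, 1361 in TG1, 4251 in TG2 and 97.5 in TG3. Beside 3.13% of all 20952 genes tested, 10 of these 21 markers had higher TG levels at an unadjusted p under 0.05. Ttr, the transthyretin gene and the most abundant of them, had an FPKM of 73.0, 49.8 and 66.6 for WT1 to WT3 against 1168, 3706 and 57.7 for TG1 to TG3, and Kcnj13, a potassium channel, had the smallest p of the list (0.0138 by limma). None of the 8 genes is on that list.

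Of the 8 genes, Igfbpl1 differed most clearly between the groups. Its mean FPKM in TG mice was 48.5% of that in WT mice, and the p was 0.0180 before and 0.786 after adjustment by limma. Of the 6 genes that entered the test, 1 (Igfbpl1) was lower and 0 were higher at an unadjusted p under 0.05, beside 2.78% lower and 3.13% higher among all 20952 genes tested. After adjustment 0 of the 6 passed by limma and also by voom on recovered reads, beside 0.00955% of all genes, which is 2 genes. Igfbpl1 and Eomes were the 2 of 8 in which every TG library lay below every WT library, as in 4.41% of 30589 genes with an FPKM above 0 in any library. The Calb2 mean in TG mice was 76.6% of the WT mean, with overlapping libraries. Of the 35 Eomes reads in WT libraries, 27 came from WT1, against 3 in the TG libraries together. Dcx, Sox11, Neurod1, Mki67 and Top2a had overlapping groups and TG means between 87.1% and 105% of the WT mean.

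The 8 genes covered a wide span of levels. Averaged over the 6 libraries, the FPKM was 18.8 for Calb2, 7.91 for Neurod1, 2.05 for Sox11, 1.27 for Dcx, 0.388 for Igfbpl1, 0.199 for Mki67, 0.0841 for Eomes and 0.0501 for Top2a. From Calb2 down to Igfbpl1 the ranges over the 6 libraries did not overlap between neighbours in this order. The ranges of Igfbpl1 and Mki67, of Mki67 and Eomes, and of Eomes and Top2a did overlap, so their order was not settled by these libraries. The lowest genes rest on few reads: 12 to 33 per library for Igfbpl1, 27 to 43 for Mki67, 5 to 12 for Top2a and 0 to 27 for Eomes. Eomes and Top2a had a mean FPKM under 0.1 and did not enter the test across genes, which left 6 of the 8.

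**Figure D1:**
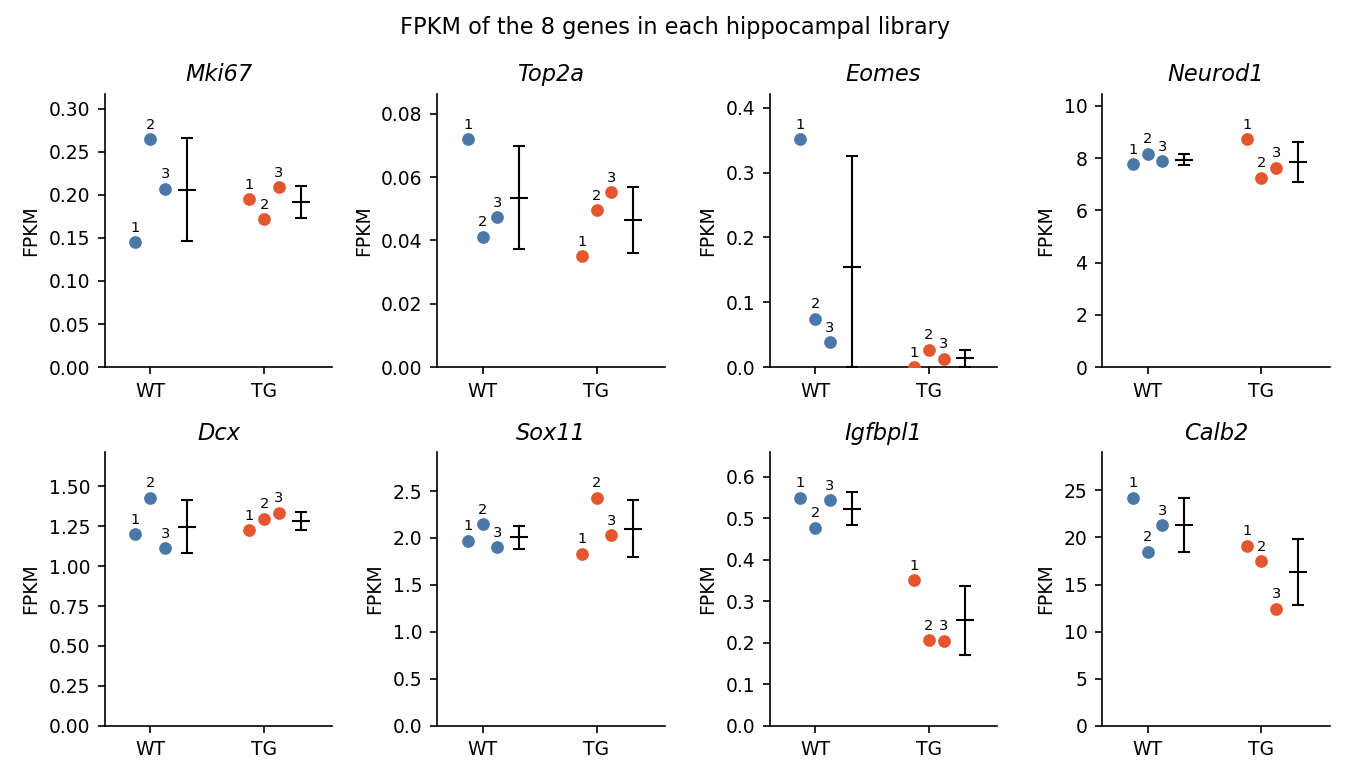
FPKM of the 8 genes in each library (y axes start at 0 and differ between panels), for WT in blue and TG in red; numbers give the replicate and the black marks the mean ± SD (n = 3 per group, the lower bar of Eomes in WT ending at the axis). The TG points lie below all WT points for Igfbpl1 (0.204 to 0.350 against 0.476 to 0.549) and Eomes, and the groups overlap for the other 6 genes.

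The proliferation genes come first, since division precedes the other stages. The 250 bases of genome before their annotated starts are shown because Mki67 and Top2a are the members used as readouts of cycling, and promoters of such genes hold recurrent short elements. The sequences are from RefSeq in GRCm38.p6, chr7:135716380-135716629 for Mki67 and chr11:99024190-99024439 for Top2a, both on the minus strand. They are written 5′ to 3′ towards the gene. Capitals mark the cell cycle homology region (CHR), searched as TTTGAA or TTCGAA, and the CCAAT box, searched as CCAAT, each on both strands, so that CCAAT also appears as ATTGG and TTTGAA as TTCAAA.
Mki67: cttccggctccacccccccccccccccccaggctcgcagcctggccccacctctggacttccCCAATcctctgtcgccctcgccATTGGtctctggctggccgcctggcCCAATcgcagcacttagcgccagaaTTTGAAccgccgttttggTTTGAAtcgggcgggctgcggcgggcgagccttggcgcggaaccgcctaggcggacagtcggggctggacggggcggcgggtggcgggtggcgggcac
Top2a: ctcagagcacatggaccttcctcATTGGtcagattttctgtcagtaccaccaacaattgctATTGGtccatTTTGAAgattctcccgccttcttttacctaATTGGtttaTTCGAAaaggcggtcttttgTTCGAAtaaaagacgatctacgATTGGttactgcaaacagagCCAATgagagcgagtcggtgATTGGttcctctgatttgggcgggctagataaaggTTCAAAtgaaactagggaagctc
The Mki67 window held 2 CHR matches and 3 CCAAT matches, and the Top2a window 4 and 6. Of 27025 promoter windows of this length, 17.4% held a CHR match, 34.5% a CCAAT match and 6.21% both. Of 28 windows of other mitosis genes, 7 held a CHR match and 22 a CCAAT match. In the remaining members with a promoter entry, Sox11 held 1 CHR and 1 CCAAT match, Eomes 2 CCAAT matches, Dcx 1 CCAAT match and Neurod1 none of either. By the gene coordinates given below, the Dcx and Neurod1 windows reach into the genes. The Mki67, Eomes and Sox11 windows leave a gap before the gene, and the Top2a window adjoins it. Igfbpl1 and Calb2 were not among the promoter entries. A match to these letters is a description and not a bound site.

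Mki67 (ENSMUSG00000031004, chromosome 7 from 135689784 to 135716361, minus strand, GRCm38) encodes Ki-67, a protein that coats mitotic chromosomes and is made in all active phases of the cell cycle. Its FPKM was 0.145, 0.265 and 0.207 for WT1 to WT3 against 0.195, 0.172 and 0.209 for TG1 to TG3. The WT libraries held both the lowest and the highest value, with all TG libraries in between. The means were 0.206 ± 0.0597 (WT) against 0.192 ± 0.0188 (TG) (SD over 3 libraries a group). The log2 fold change of TG against WT was -0.05 (SE 0.333, 95% interval -0.83 to 0.73), with a p of 0.886 and an adjusted p of 0.976 by limma. On this scale the interval runs from 0.563 to 1.66 times the WT level, on 27 to 43 reads per library.

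Top2a (ENSMUSG00000020914, chromosome 11 from 98992943 to 99024189, minus strand), the topoisomerase that untangles chromosomes before they separate, had the lowest FPKM of the 8 when averaged over the 6 libraries. It had 12, 6 and 8 reads for WT1 to WT3 against 5, 8 and 9 reads for TG1 to TG3, an FPKM of 0.0720, 0.0412 and 0.0474 against 0.0351, 0.0495 and 0.0553. High and low libraries occurred in both groups. The ratio of summed reads scaled to library size, TG over WT, was 0.872 with an exact 95% interval of 0.471 to 1.60, and the exact permutation p was 0.7. Fitted with all genes and no filter, its log2 fold change was -0.06 (limma p 0.781). This interval and the other intervals on reads cover counting error only. A small RNA gene, Gm23451, shares 122 exon bases with Top2a and was listed at 0 in all libraries.

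**Figure D2:**
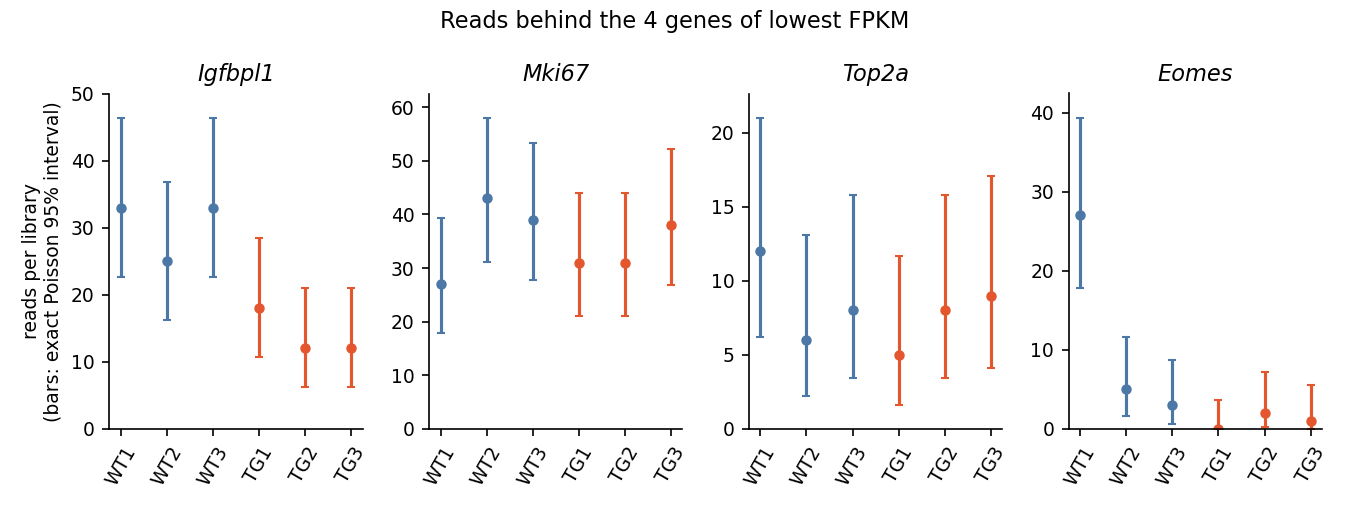
Reads recovered per library (y axes start at 0 and differ between panels) for Igfbpl1, Mki67, Top2a and Eomes, WT in blue and TG in red, with exact Poisson 95% intervals that cover counting error only. Igfbpl1 had 25 to 33 reads in WT and 12 to 18 in TG libraries, Mki67 and Top2a overlapped, and WT1 stood out for Eomes with 27 reads.

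A further 34 genes of mitosis were read beside Mki67 and Top2a. Their summed FPKM was 8.11, 8.13 and 9.90 for WT1 to WT3 against 8.08, 8.02 and 8.71 for TG1 to TG3, with TG3 inside the WT range and TG1 and TG2 just under it. Of the 21 with a mean FPKM of at least 0.1, 10 had a higher and 11 a lower mean on the log scale, with a median log2 fold change of -0.07 beside -0.00 over all 20952 genes tested. Only Birc5, which encodes survivin of the chromosomal passenger complex, was past an unadjusted p of 0.05. Birc5 had 14, 18 and 20 reads for WT1 to WT3 against 8, 1 and 4 reads for TG1 to TG3, an FPKM of 0.288 ± 0.0571 against 0.0767 ± 0.0669. Its log2 fold change was -1.19 (SE 0.420) with a p of 0.0241 and an adjusted p of 0.786 by limma. Cks2, a partner of cyclin-dependent kinases with the highest level on the list, averaged 0.804 ± 0.190 (WT) against 0.878 ± 0.326 (TG).

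Genes of DNA replication serve S phase and also repair. Of 30 listed genes 28 were tested, 12 with a positive and 16 with a negative log2 fold change, 1 was higher and 0 were lower at an unadjusted p under 0.05, and the median log2 fold change was -0.03. The higher gene was Mcm5, a subunit of the replicative helicase, which averaged 0.899 ± 0.142 (WT) against 1.22 ± 0.0350 (TG) (log2 fold change 0.41, limma p 0.0434, adjusted p 0.786). Pcna, the sliding clamp and the gene with the highest level here, averaged 18.0 ± 1.00 against 16.7 ± 0.404 (limma p 0.184).

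Upstream of the members, 14 markers of stem cells and radial glia were read, many of which astrocytes also express. Of the 13 tested, 0 passed an unadjusted p of 0.05 in either direction by limma, and the median log2 fold change was -0.06. Sox2, a transcription factor of neural stem cells and also of astrocytes, was the most abundant gene here and averaged 21.8 ± 2.35 (WT) against 20.9 ± 1.07 (TG). Thrsp, a lipogenesis regulator of quiescent neural stem cells, had the smallest p of the list: 13.1, 14.9 and 21.2 for WT1 to WT3 against 10.7, 12.7 and 13.0 for TG1 to TG3, with a limma p of 0.0522.

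Eomes (ENSMUSG00000032446, chromosome 9 from 118478212 to 118486132, plus strand) marks intermediate progenitors. It had 27, 5 and 3 reads for WT1 to WT3 against 0, 2 and 1 reads for TG1 to TG3, which gave an FPKM of 0.351, 0.0745 and 0.0386 against 0, 0.0269 and 0.0133. Every TG library lay below every WT library, and WT1 stood far above all others, its 27 reads having a Poisson 95% interval of 17.8 to 39.3. TG1 with 0 reads has an exact Poisson 95% upper limit of 3.69 reads, an FPKM of 0.0561, which lies above WT3. The cruder floor of 3 reads is an FPKM of 0.0456, also above WT3. Over the group, the read share of TG mice (reads scaled to library size) was 0.0883 of that of WT mice (exact 95% interval 0.0174 to 0.280, 3 against 35 reads). Without WT1 this ratio was 0.252 with an interval of 0.0431 to 1.05, on 3 against 8 reads.

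Fitted with all genes and no filter, Eomes had a log2 fold change of -0.97, with a p of 0.0696 and an adjusted p of 0.802 by limma, and without WT1 the log2 fold change was -0.46 (limma p 0.0501). The exact permutation p was 0.1, the smallest that 3 libraries against 3 can give. An antisense gene, Gm33460, shares 118 exon bases with Eomes, and the strand setting of the counting was not given in the sources used here. Genes of NK and T cells, the other cells in which Eomes is used, had more reads in every TG library than in any WT library: the 15 listed genes had 34, 34 and 28 reads in sum for WT1 to WT3 against 44, 107 and 82 for TG1 to TG3. Ncr1, a receptor that defines NK cells, was listed at 0 throughout. Of the 6 tested, with a median log2 fold change of 0.74 (0.18 with a pseudocount of 1 and 1.16 with voom on recovered reads), 1 was higher, Trbc2, the T cell receptor constant chain, with 2, 6 and 5 reads for WT1 to WT3 against 10, 12 and 26 for TG1 to TG3 (limma p 0.00632, adjusted p 0.786). Their part in the Eomes values was not tested.

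Neurod1 (ENSMUSG00000034701, chromosome 2 from 79452521 to 79456751, minus strand) is a basic helix-loop-helix factor needed for granule neurons to form and survive. Its FPKM was 7.77, 8.17 and 7.89 for WT1 to WT3 against 8.73, 7.26 and 7.63 for TG1 to TG3, on 355 to 403 reads per library. The TG libraries held both the lowest and the highest value. The log2 fold change was -0.02 (SE 0.0892, 95% interval -0.23 to 0.19; limma p 0.858, adjusted p 0.970), the tightest of the 6 tested, which leaves a TG level between 0.855 and 1.14 times that of WT on this scale. Neurod1 shares 201 exon bases with Cerkl on the same strand and 154 with Gm26755 on the other, and neither exceeded an FPKM of 0.562.

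Dcx (ENSMUSG00000031285, chromosome X from 143855842 to 143933311, minus strand) encodes doublecortin, the microtubule protein of migrating neuroblasts and the usual marker of adult neurogenesis. It had an FPKM of 1.20, 1.43 and 1.11 for WT1 to WT3 against 1.22, 1.30 and 1.34 for TG1 to TG3, from 245 to 305 reads per library. All TG values fell between the lowest and the highest WT value. The means were 1.25 ± 0.164 and 1.29 ± 0.0564 (SD over 3 libraries a group), and the log2 fold change was 0.05 (SE 0.152, 95% interval -0.31 to 0.40; limma p 0.769, adjusted p 0.947). The WT libraries varied by 13.2%, beyond the 5.99% that counting alone would give, and the TG libraries by 4.39% against 5.96%.

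Sox11 (ENSMUSG00000063632, chromosome 12 from 27334264 to 27342574, minus strand), a transcription factor of committed progenitors and neuroblasts that acts on Dcx, had similar means in both groups. The FPKM was 1.97, 2.15 and 1.90 for WT1 to WT3 against 1.83, 2.43 and 2.03 for TG1 to TG3. The TG group again held both ends of the range. The means were 2.01 ± 0.125 and 2.10 ± 0.304 (SD over 3 libraries a group), with a log2 fold change of 0.05 (SE 0.139, 95% interval -0.27 to 0.38; limma p 0.709, adjusted p 0.933).

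Igfbpl1 (ENSMUSG00000035551, chromosome 4 from 45809468 to 45826923, minus strand) encodes a secreted protein related to the insulin-like growth factor binding proteins and is a transcript of neuroblasts. Its FPKM was 0.549, 0.476 and 0.542 for WT1 to WT3 against 0.350, 0.206 and 0.204 for TG1 to TG3. The groups did not overlap, and TG1, the highest TG library, stood between the other TG libraries and the WT libraries. The means were 0.523 ± 0.0403 (WT) against 0.253 ± 0.0836 (TG) (SD over 3 libraries a group). The log2 fold change was -0.84 (SE 0.276, 95% interval -1.49 to -0.19), with a p of 0.0180 and an adjusted p of 0.786 by limma, and the exact permutation p was 0.1.

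The counts behind Igfbpl1 were 33, 25 and 33 reads for WT1 to WT3 against 18, 12 and 12 for TG1 to TG3. Summed per group, 42 against 91 reads, the ratio of reads scaled to library size was 0.475 with an exact 95% interval of 0.322 to 0.692. The WT libraries varied by 7.71%, less than the 18.2% that counting would give, and the TG libraries by 33.0% against 26.7%. Whether Igfbpl1 differed by more than Dcx or Sox11 was not tested.

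**Figure D3:**
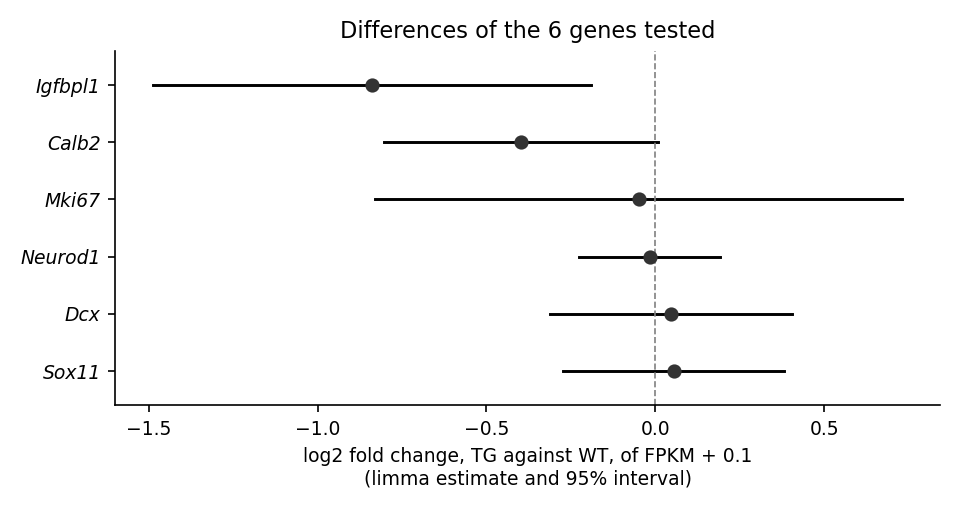
Log2 fold change of TG against WT for the 6 tested genes (x axis, log2 of FPKM + 0.1) as the limma estimate with its 95% interval; the dashed line marks no difference. The interval of Igfbpl1 lies below 0 (-1.49 to -0.19), that of Calb2 ends just above it (-0.80 to 0.01), and the other 4 span it.

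Of the libraries with the excess of choroid plexus markers, TG1 had 18 reads of Igfbpl1 and TG2 had 12. TG3, without the excess, also had 12. With TG3 as the lone TG library, the log2 fold change of Igfbpl1 was -1.03 and that of Calb2 was -0.77, with no spread among TG libraries behind them. The other 4 tested members had log2 fold changes between -0.057 and 0.098 in that fit. The part of choroid plexus content in the Igfbpl1 values was not tested.

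Around the members, 26 further genes of intermediate progenitors and neuroblasts were measured, all of them tested. Of these, 11 had a positive and 15 a negative log2 fold change, and the median was -0.01. The 1 gene past an unadjusted p of 0.05 was Cd24a, a surface glycoprotein used to sort neuroblasts. Its FPKM was 4.38, 4.10 and 4.49 for WT1 to WT3 against 3.04, 3.83 and 2.45 for TG1 to TG3, with every TG library below every WT library and a log2 fold change of -0.49 (SE 0.160, limma p 0.0178, adjusted p 0.786). Tubb3, the neuronal tubulin and by level the top gene here, averaged 130 ± 14.9 (WT) against 129 ± 7.36 (TG). Neurod6 and Tac2 of this list also stand in the lists of pyramidal neurons and of thalamus and habenula.

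Neuroblasts of the ventricular zone and olfactory bulb, which share Dcx and Sox11 with those of the dentate gyrus, were looked for through 10 genes. By limma 0 of 10 passed an unadjusted p of 0.05 and the median log2 fold change was 0.05. Etv1, the most abundant, averaged 8.93 ± 0.775 (WT) against 9.23 ± 0.959 (TG), and Dlx6, a transcription factor of GABAergic precursors, had the smallest p (1.48 ± 0.389 against 1.06 ± 0.0832, limma p 0.0762).

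Calb2 (ENSMUSG00000003657, chromosome 8 from 110137502 to 110168210, minus strand) encodes calretinin, a calcium-binding protein. Its FPKM was 24.2, 18.5 and 21.3 for WT1 to WT3 against 19.1, 17.5 and 12.4 for TG1 to TG3. WT1 was the highest and TG3 the lowest, and TG1 lay above WT2, so the groups overlapped. The means were 21.3 ± 2.88 and 16.3 ± 3.50 (SD over 3 libraries a group), and the log2 fold change was -0.40 (SE 0.173, 95% interval -0.80 to 0.01; limma p 0.0533, adjusted p 0.786). The exact permutation p was 0.2. Without TG3 the log2 fold change was -0.21 (limma p 0.160), and without TG1 it was -0.52 (limma p 0.0377). With 391 to 781 reads per library, counting gave a spread of 3.88% in WT and 4.53% in TG libraries, whereas the libraries varied by 13.5% and 21.4%.

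Calb2 is the member with the most other sources in this tissue. Of 7 mossy cell markers 6 were tested and 0 passed an unadjusted p of 0.05 by limma, with a median log2 fold change of -0.01. Among them, Ajap1 had 17.8 ± 1.49 (WT) against 19.3 ± 3.44 (TG), and Nmb, a neuropeptide, 2.78 ± 1.02 against 1.75 ± 0.0766 (limma p 0.0727). Of 13 markers of calretinin interneurons and Cajal-Retzius cells, 12 were in the table and 10 were tested, with a median of -0.14. Crh, the corticotropin-releasing hormone, was higher in TG mice, 1.12 ± 0.0487 against 1.89 ± 0.184 (log2 fold change 0.70, limma p 0.00125, adjusted p 0.751), and Cck, the most abundant, had 255 ± 63.8 and 227 ± 9.95. Their part in the Calb2 values was not tested.

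The thalamus and habenula, neighbours of the hippocampus whose neurons partly express calretinin, were read through 14 genes, and by limma 0 passed an unadjusted p of 0.05 in either direction. Of the 14, 12 had a positive and 2 a negative log2 fold change, and the median was 0.17. Their summed FPKM was 41.2, 29.8 and 30.9 for WT1 to WT3 against 34.1, 33.2 and 39.5 for TG1 to TG3. WT1, the library with the most Calb2, was the highest here, and TG3, the library with the least Calb2, came next. Ntng1, the most abundant and among the 2 with a negative log2 fold change, had 5.57 ± 0.472 against 4.996 ± 0.0289, and Rora, with the smallest p, 2.82 ± 0.289 against 3.29 ± 0.171 (limma p 0.0922). The part of neighbouring tissue in the Calb2 values was not tested.

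Downstream of the calretinin stage, 16 markers of dentate granule neurons were tested. Of these, 4 had lower TG levels and 0 higher at an unadjusted p under 0.05, beside 2.78% and 3.13% of all 20952 genes tested. The log2 fold change was negative in 11 of the 16, beside 10554 of all genes tested, and the median was -0.10. Calb1, the calbindin gene of mature granule neurons, was among the 4, with an FPKM of 25.8, 28.2 and 34.6 for WT1 to WT3 against 23.7, 24.4 and 22.6 for TG1 to TG3. Every TG library lay below every WT library (log2 fold change -0.31, SE 0.110, limma p 0.0245, adjusted p 0.786), and CA1 pyramidal neurons also express the gene. The other 3 were Tdo2, a tryptophan-degrading enzyme (-0.45, limma p 0.0379), the cation channel Trpc6 (-0.28, limma p 0.0278) and Stxbp6, a regulator of vesicle fusion (-0.23, limma p 0.0499). Libraries of the groups overlapped for Tdo2 and did not for Trpc6 and Stxbp6. Fam163b, the most abundant, had 59.6 ± 10.04 against 58.1 ± 1.62. The median deviation from the WT mean was -0.10, 0.20 and -0.09 for WT1 to WT3 against -0.11, 0.01 and -0.13 for TG1 to TG3, so WT2 was the highest and the other libraries overlapped.

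**Figure D4:**
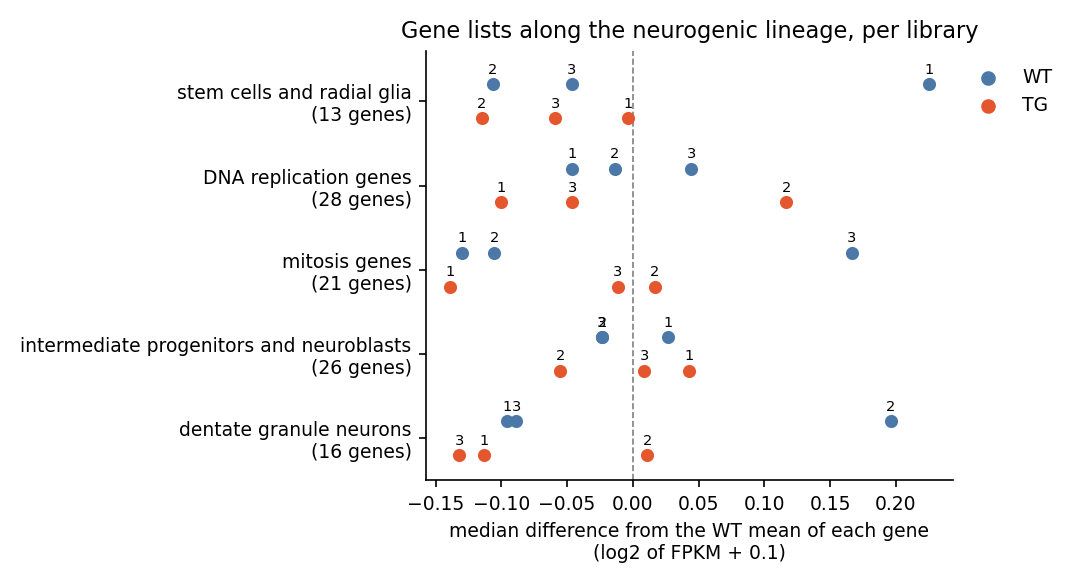
Median difference from the WT mean of each gene (x axis, log2 of FPKM + 0.1) for 5 gene lists along the lineage, with WT libraries in blue above TG libraries in red and the replicate number at each point. In each list the 2 groups overlap, and all medians lie between -0.14 and 0.22.

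Other cells that divide in the adult brain, or that could sit in the sample, were read in the same way. Among all 20952 genes tested, 2.78% were lower and 3.13% higher at an unadjusted p under 0.05. Of 11 genes of oligodendrocyte precursors, the most common cycling cells outside the neurogenic niche, 1 was higher and 1 lower at an unadjusted p under 0.05 with a median of -0.02. The higher gene was Gpr17, a receptor of cells about to differentiate (5.51 ± 1.31 against 7.30 ± 0.456, limma p 0.0332), and the lower was the lineage factor Olig2 (11.7 ± 0.679 against 10.3 ± 0.147, limma p 0.0447). Olig1, the most abundant, had 57.7 ± 6.29 against 51.7 ± 0.115. Of 15 microglial genes 2 were higher, Trem2 (2.77 ± 0.133 against 3.33 ± 0.0607, limma p 0.0274) and Csf1r (19.4 ± 0.461 against 22.1 ± 1.73, limma p 0.0446), with a median of 0.10. Ctss, the most abundant of them, had 47.7 ± 6.79 against 60.1 ± 18.9. Of 7 tested blood genes 0 passed by limma with a median of -0.16, and Hbb-bs, a globin, had 94.9 ± 19.1 against 81.6 ± 2.54.

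Markers of hippocampal pyramidal neurons, which tell of the region dissected, had a median log2 fold change of -0.01 over 12 genes. Iyd, a deiodinase gene, was lower at an unadjusted p under 0.05, with a log2 fold change of -0.53 (limma p 0.0226). Neurod6, the most abundant, averaged 80.8 ± 9.45 (WT) against 73.5 ± 1.74 (TG). After adjustment over all genes no gene of the 15 lists had a p under 0.05 by limma, the smallest being 0.751 for Crh. Slc1a2, the gene that carries the variant, had an FPKM of 202, 199.5 and 177 for WT1 to WT3 against 222, 207 and 217 for TG1 to TG3 (limma p 0.102), and FPKM cannot show the changed bases. Reads on genes ranged from 16081281 to 18751057 per library, and no pair of libraries agreed within sampling noise.

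For 7 of the members, the gene with the closest pattern over the 6 libraries was sought among the 13325 whose mean FPKM reached 1, as a description of these libraries. Closeness was the root mean square difference of the log2 deviations from the WT mean. Plek, a blood cell protein, was nearest to Sox11 (0.03), Zfp13 to Neurod1 (0.02), Echdc2 to Mki67 (0.05) and Pros1, the gene of protein S, to Top2a (0.03). E430018J23Rik was nearest to Calb2 (0.09). Matches were looser for Eomes (Ccdc153, 0.37) and Igfbpl1 (Mir7052, 0.14), whose own root mean square deviations were the largest of the 8 at 0.87 and 0.62. Mir7052 is a 65-base gene with 7 to 19 reads per library, so its FPKM is imprecise.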

How the data were processed

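RNA was extracted from hippocampus of WT and TG mice, sequenced as 3 libraries per group on an Illumina HiSeq instrument and counted per gene with HTSeq. The methods name Trizol and a NEBNext Ultra kit, whereas the labels name an RNeasy and a SMARTER kit. The aligner and the strand setting were not given in the sources used here, and the builds GRCm38 and mm10 are from the submitters' processing notes. The authors deposited FPKM, computed from read counts and gene length, for each library. The product of FPKM and gene length fell on whole steps for 100% of values (tolerance 0.05 reads), which gave the reads behind each value. In each library 3 reads on a gene of 1 kb were worth an FPKM of 0.160 to 0.190.

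Groups were compared with limma 3.58.1 (R 4.3.3), fitted to log2(FPKM + 0.1), with empirical Bayes variances and a trend on expression, over the 20952 genes whose mean FPKM reached 0.1, and p-values were adjusted by Benjamini-Hochberg. The added 0.1 shrinks fold changes of low genes. The main test was fitted to FPKM because these are the deposited values, and voom on the recovered reads was run as an alternative. Exact permutation tests were two-sided. Reads were compared with exact Poisson and conditional binomial 95% intervals. The labels do not say that libraries came from separate animals. The limma p-values therefore set a group difference against the spread between these libraries, with variances that also draw on the other genes. The fit was also run on simulated counts with the same dispersion for all genes. That setting is simpler than these libraries, so no conclusion about them is drawn from it. The members, the gene lists and the tests were chosen with earlier results of these data known. Named genes were the 8 members, the most abundant gene and the gene with the smallest p of each list, and the nearest gene in pattern, and genes past an unadjusted p of 0.05 were named where few. A few genes that this rule names are left out of the text. Promoters were RefSeq sequences (GRCm38.p6), and 6 of 8 members were matched. Python 3.11.15, numpy 2.4.6, scipy 1.17.1 and matplotlib 3.10.9 were used.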

Additional observations from a re-analysis of the deposited data

How the results depend on the processing

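The results were recomputed under 15 alternatives. The number of members past an unadjusted p of 0.05 was 1 and became 0 with a mean FPKM of at least 1, where Igfbpl1 was not tested. It became 2 with voom on recovered reads and with the replicate block, and ranged from 1 to 2 when a library was left out. The added gene was always Calb2, with a limma p of 0.0219 under voom, 0.0344 under the replicate block and 0.0377 without TG1, and the cause was not tested. After adjustment 0 members passed in all 15. Over all genes, 2 passed after adjustment in the reported fit, 9 with no variance trend, 6 without TG1, 2 with quantile normalization, 1 with a mean FPKM of at least 1 and 0 in the other 11, while the number past an unadjusted p of 0.05 was 1238 and ranged from 827 to 1543. The replicate block was an alternative only, because the deviations of same-numbered libraries were nearly uncorrelated (0.0125, 0.0434 and 0.00314). WT1 and WT2 correlated best with the TG library of their own number and WT3 with TG1 (0.0159). All correlations between WT and TG libraries lay between -0.0274 and 0.0434. The median of the tested members was -0.03 and ranged from -0.115 (without WT1) to 0.046 (without WT2) over the left-out libraries.

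Igfbpl1 kept its direction in the 14 alternatives that tested it, with log2 fold changes of -1.08 (voom) to -0.28 (pseudocount 1). In those with more than 1 TG library its limma p was under 0.05 before adjustment and at least 0.636 after it. All of them refit the same libraries or a part of them. Eomes passed an unadjusted p of 0.05 with a pseudocount of 0.01 (-2.48, limma p 0.0482) and without WT3 (-1.31, limma p 0.0424), whereas its log2 fold change of -0.97 became -0.46 without WT1 (limma p 0.0501) and -0.18 with a pseudocount of 1 (limma p 0.121), all added after seeing the data. The NK and T cell list median, 0.74, moved to 0.18 with a pseudocount of 1, 1.17 with a pseudocount of 0.01 and 1.16 with voom. Directions reversed only among genes far from the threshold. Over the left-out libraries the lowest and highest log2 fold changes were -0.027 and 0.141 for Dcx, -0.052 and 0.142 for Sox11, -0.092 and 0.039 for Neurod1 and -0.199 and 0.087 for Mki67. Mki67 was 0.035 without TG1 and TG2, and Top2a with no filter was 0.021 without WT1. Where a mean FPKM of 1 was required, the mitosis and NK and T cell lists gave no value.

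Depth limits Eomes, Top2a, Mki67 and Igfbpl1, which had at most 43 reads per library, and 3 libraries per group limit all 8.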
